A study of Mus musculus with 6 samples.

Results

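The genes that carry butyrate into the colonic epithelium, sense it and burn it, 9 of the 55487 listed, were followed in isolated intestinal epithelial cells (IECs) of mice treated with dextran sodium sulphate (DSS), a detergent-like polymer that injures the colonic lining. Each was matched by its symbol to 1 row of the table: Slc16a1, Slc5a8, Bsg, Acads, Acadm, Hadha, Cpt1a, Acat1 and Ffar2. There were 3 libraries from Nsd2f/f mice, in which loxP sites flank the histone methyltransferase gene Nsd2, and 3 from Nsd2Vil-KO littermates, which carry the same floxed alleles and a Cre driven by the Villin promoter, which directs deletion to the intestinal epithelium. According to the methods the mice were on C57BL/6J, 2 months old when colitis was induced, and received 2% DSS in drinking water for 5 days, but the day of sampling is not given, and no library from mice without DSS entered the comparison. The cells were shaken off the colon after EDTA, and no sort is described, so cells other than epithelium can be present.

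Butyrate, made by gut bacteria, is a main fuel of colonocytes. It enters through the proton-coupled monocarboxylate transporter MCT1 (Slc16a1), whose place in the membrane depends on the chaperone basigin (Bsg), and through the sodium-coupled transporter SMCT1 (Slc5a8), while the receptor Ffar2 senses short-chain fatty acids (SCFAs) at the cell surface. Inside the mitochondrion acyl-CoA dehydrogenases, the trifunctional protein and thiolases shorten fatty acids to acetyl-CoA, and acetyl-CoA can leave as ketone bodies. Long chains need the carnitine shuttle, whose entry enzyme is Cpt1a, whereas butyrate largely bypasses it.

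None of the 9 genes passed the screening criterion, a fold change above 1.2 with an unadjusted p below 0.05 in edgeR's quasi-likelihood test, which 3.29% of the 14650 tested genes passed. The genotypes overlapped for each of the 9, and 9.9% of the tested genes did not overlap. Cpt1a had the highest log2 fold change, 0.70, and the other 8 lay between -0.40 and -0.010. The variation lay among libraries of one genotype. Nsd2f/f replicate 3 was the highest library for 6 of the 9 genes, and Nsd2Vil-KO replicate 2 was the highest for Cpt1a and the lowest for Slc5a8 and Ffar2. Without Nsd2f/f replicate 3 the log2 fold change was above 0 for 7 of the 9 genes, and with all libraries for 1.

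The promoters of 4 of the genes are printed because these genes stood furthest above their partners in 1 library, at 2.31 to 2.48 times the mean of the other two of that genotype: Slc16a1, Acads and Acadm were high in Nsd2f/f replicate 3, and Cpt1a was high in Nsd2Vil-KO replicate 2. Each runs 5′ to 3′ from 250 bases before to 50 bases after the start given by RefSeq on GRCm38.p6. Capitals mark the letters AGGTCA, the half-site bound by many nuclear receptors, and GGGCGG, the GC box, on either strand, so that both can also appear as their reverse complement.
Slc16a1, chr3:104638414-104638713, plus strand: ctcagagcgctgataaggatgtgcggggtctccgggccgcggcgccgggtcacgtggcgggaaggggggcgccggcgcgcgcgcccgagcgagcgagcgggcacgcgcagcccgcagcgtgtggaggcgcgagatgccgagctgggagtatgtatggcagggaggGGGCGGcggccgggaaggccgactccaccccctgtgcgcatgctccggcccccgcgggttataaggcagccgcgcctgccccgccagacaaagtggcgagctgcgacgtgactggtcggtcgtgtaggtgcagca
Acads, chr5:115119297-115119596, minus strand: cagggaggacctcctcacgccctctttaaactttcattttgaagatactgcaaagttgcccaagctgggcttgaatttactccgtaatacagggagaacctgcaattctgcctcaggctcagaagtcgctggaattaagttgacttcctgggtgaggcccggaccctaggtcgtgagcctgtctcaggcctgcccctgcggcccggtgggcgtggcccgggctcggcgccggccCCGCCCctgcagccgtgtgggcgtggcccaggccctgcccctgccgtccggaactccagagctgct
Acadm, chr3:153944594-153944893, minus strand: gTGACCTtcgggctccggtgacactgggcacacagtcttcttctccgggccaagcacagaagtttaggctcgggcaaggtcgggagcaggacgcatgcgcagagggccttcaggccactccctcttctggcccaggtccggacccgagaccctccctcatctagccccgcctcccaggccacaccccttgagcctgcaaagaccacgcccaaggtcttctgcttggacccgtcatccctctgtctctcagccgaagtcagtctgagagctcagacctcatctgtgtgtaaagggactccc
Cpt1a, chr19:3323051-3323350, plus strand: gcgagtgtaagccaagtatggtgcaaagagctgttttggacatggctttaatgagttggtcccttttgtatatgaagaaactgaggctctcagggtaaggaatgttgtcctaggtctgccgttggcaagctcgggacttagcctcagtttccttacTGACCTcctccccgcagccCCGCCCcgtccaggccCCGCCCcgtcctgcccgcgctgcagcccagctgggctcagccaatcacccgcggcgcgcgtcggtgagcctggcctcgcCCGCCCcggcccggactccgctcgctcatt

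The RefSeq table matched 7 of the 9 genes, and Bsg and Acat1 are only named. The Cpt1a promoter held the half-site with its leftmost base 94 bases before the start and 3 copies of the GC box, and the Acadm promoter held the half-site 249 bases before the start and no GC box. The half-site was found in 16.3% and the GC box in 35.7% of 32851 promoters of the same length, searched on both strands. The direct repeat DR1, made of that half-site, any 1 base and the half-site again, so that each match also counts as a single one, was in none of the matched promoters of the 9 genes and in 0.0396% of all. The Slc16a1 promoter was the richest in G and C of those printed, at 73.7% against 62.7% for Acads and 62.3% for both Acadm and Cpt1a, and the median of all promoters was 52.7%. These are matches of letters in a window and say nothing of binding.

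The libraries held from 15439123 to 18365555 counted reads in Nsd2f/f and from 18053077 to 20350539 in Nsd2Vil-KO, where 3 counts stand for 0.146 to 0.242 CPM (normalised read counts, scaled by TMM, the trimmed mean of M values). Nsd2 was listed at 47.9, 51.2 and 24.6 CPM in Nsd2f/f and at 24.2, 10.4 and 20.8 CPM in Nsd2Vil-KO, a log2 fold change of -1.16 ± 0.39 (SE) with p = 0.0217 in edgeR's quasi-likelihood test and an exact permutation p of 0.1. Nsd2f/f replicate 3 thus lay next to the highest Nsd2Vil-KO library. Its reads can be shared with Nelfa, whose exons overlap. Transcripts of Xist, which come from the inactive X chromosome, reached 4296 counts in Nsd2f/f replicate 3 and 3684 in Nsd2Vil-KO replicate 2 and at most 5 in the other 4 libraries. These 2 libraries stood apart from the other 4 also over all genes, with a mean Spearman correlation of 0.933 to them against 0.981 among the 4. The correlation between the 2 themselves was 0.927, so they did not resemble each other more than they resembled the others, and results are therefore given with and without them. Mitochondrially encoded genes took 19.6% of the counts in Nsd2f/f replicate 3 and between 5.51% and 9.13% elsewhere. The 9 epithelial markers, among them Epcam and Cdh1, summed to between 11950 and 18100 CPM in every library, and none was at 0. The labels do not say that replicates came from separate mice, so p-values measure the spread between these libraries. In bulk libraries fewer cells of a type and less RNA per cell cannot be told apart.

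**Figure D1:**
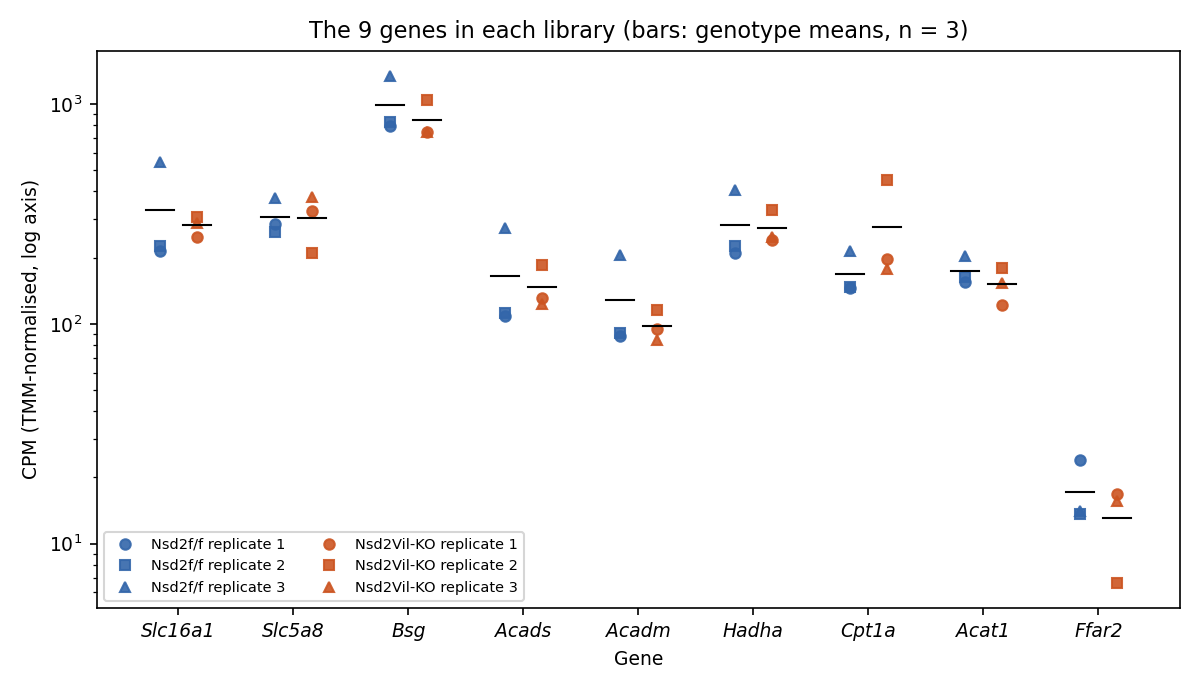
CPM of the 9 genes in each library on a log axis, with blue for the 3 Nsd2f/f libraries, orange for the 3 Nsd2Vil-KO libraries, a marker shape per replicate number and a bar at each genotype mean. The third blue marker lies above the other two for every gene but Ffar2, and the second orange marker stands alone at 449.8 CPM for Cpt1a.

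Slc16a1 (ENSMUSG00000032902, chr3:104638668-104658462, plus strand, GRCm38) encodes MCT1, which moves butyrate, lactate and ketone bodies together with a proton. It was measured at 214, 226 and 547 CPM in Nsd2f/f and at 249, 304 and 287 CPM in Nsd2Vil-KO. The third Nsd2f/f library was 2.48 times the mean of the other two and the highest of the 6, while both of the others were below every Nsd2Vil-KO library. The log2 fold change was -0.23 ± 0.38 (SE, n = 3 per genotype; edgeR p = 0.565, exact permutation p = 1.0). It was 0.35 ± 0.20 without Nsd2f/f replicate 3 and -0.29 ± 0.45 without Nsd2Vil-KO replicate 2, so 1 library set its sign.

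Slc5a8 (ENSMUSG00000020062, chr10:88885992-88929515, plus strand) encodes SMCT1, which takes up SCFAs with sodium. Its levels were 284, 261 and 373 CPM in Nsd2f/f and 326, 209.6 and 375 CPM in Nsd2Vil-KO. The means of 306 ± 59.1 and 304 ± 85.1 CPM (SD, n = 3) were nearly equal, and the log2 fold change was -0.010 ± 0.28 (edgeR p = 0.972, exact permutation p = 1.0). Nsd2Vil-KO replicate 2 was the lowest library, at 0.598 times the mean of the other two of its genotype, and this set Slc5a8 apart from Slc16a1, for which that library was the highest of its genotype.

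Bsg (ENSMUSG00000023175, chr10:79704491-79711969, plus strand), the glycoprotein that escorts MCT1 to the membrane, was measured at 794, 829 and 1338 CPM in Nsd2f/f and at 742, 1041 and 748 CPM in Nsd2Vil-KO. As for Slc16a1, the third Nsd2f/f and the second Nsd2Vil-KO library were the highest of their genotypes. Its log2 fold change was -0.23 ± 0.30 (edgeR p = 0.477, exact permutation p = 0.5), and it was 0.060 ± 0.26 without Nsd2f/f replicate 3.

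Ffar2 (ENSMUSG00000051314, chr7:30818348-30823775, minus strand), a G protein-coupled receptor for acetate, propionate and butyrate that neutrophils also express, was the least abundant. It was measured at 23.9, 13.6 and 14.1 CPM in Nsd2f/f and at 16.8, 6.66 and 15.6 CPM in Nsd2Vil-KO, from 120 to 483 counts. Apart from the highest and the lowest library, the other 4 lay within 13.6 to 16.8 CPM. Its log2 fold change was -0.40 ± 0.41 (edgeR p = 0.36, exact permutation p = 0.6), and it was -0.086 ± 0.30 without Nsd2Vil-KO replicate 2. The 12 neutrophil markers summed to 1388, 410.1 and 211 CPM in Nsd2f/f and to 435, 2379 and 248 CPM in Nsd2Vil-KO, and none of the 12 was at 0 in all libraries. The sum in Nsd2Vil-KO replicate 2 was carried by Ly6g at 1355, S100a8 at 574 and S100a9 at 405 CPM. Of the 9 markers that passed the filter, the other 6, such as the receptors Csf3r at 31.0 and Cxcr2 at 12.5 CPM, were highest in Nsd2f/f replicate 1, which also had the highest Ffar2 level. Their part in the Ffar2 values was not tested.

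Cpt1a (ENSMUSG00000024900, chr19:3322334-3385733, plus strand) encodes the outer-membrane carnitine palmitoyltransferase that commits long-chain fatty acids to oxidation. Its levels were 145, 147 and 214 CPM in Nsd2f/f and 196, 449.8 and 177 CPM in Nsd2Vil-KO. Each Nsd2Vil-KO library was above the first and the second Nsd2f/f library, and the second was 2.41 times the mean of the other two of its genotype and 2.10 times Nsd2f/f replicate 3. The log2 fold change was 0.70 ± 0.39 (edgeR p = 0.117, exact permutation p = 0.3). It stayed above 0 when any 1 library was left out, between 0.15 and 0.94, and was lowest, at 0.15 ± 0.22, without Nsd2Vil-KO replicate 2.

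Acads (ENSMUSG00000029545, chr5:115110299-115119346, minus strand) encodes the short-chain acyl-CoA dehydrogenase, which takes butyryl-CoA through its first oxidation step. It was measured at 109, 112 and 273 CPM in Nsd2f/f and at 131, 185 and 122 CPM in Nsd2Vil-KO. The first 2 Nsd2f/f libraries were below all 3 Nsd2Vil-KO libraries and the third was above them. The log2 fold change was -0.17 ± 0.39 (edgeR p = 0.678, exact permutation p = 1.0) and moved to 0.41 ± 0.24 without Nsd2f/f replicate 3.

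Acadm (ENSMUSG00000062908, chr3:153922357-153944632, minus strand), the medium-chain dehydrogenase for fatty acids, was measured at 88.1, 90.6 and 206 CPM in Nsd2f/f and at 94.3, 115 and 84.6 CPM in Nsd2Vil-KO. As for Acads, the third Nsd2f/f library was the highest and the second Nsd2Vil-KO library came next. For Acadm the log2 fold change was -0.39 ± 0.36 (edgeR p = 0.315, exact permutation p = 0.7), and it was 0.14 ± 0.20 without Nsd2f/f replicate 3.

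Hadha (ENSMUSG00000025745, chr5:30118304-30155162, minus strand) encodes the alpha subunit of the trifunctional protein, which hydrates and dehydrogenates long-chain acyl-CoA. Its levels were 210.4, 226 and 406 CPM in Nsd2f/f and 239, 329 and 247 CPM in Nsd2Vil-KO. Here too the third Nsd2f/f library was the highest and the second Nsd2Vil-KO library came next. Its log2 fold change was -0.047 ± 0.31 (edgeR p = 0.882, exact permutation p = 1.0), and it was 0.32 ± 0.23 without Nsd2f/f replicate 3. Its exons overlap those of Garem2 on the other strand over 75 bases, and Garem2 had 7 counts over all libraries.

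Acat1 (ENSMUSG00000032047, chr9:53580522-53610382, minus strand), the mitochondrial thiolase that joins or splits acetoacetyl-CoA and so serves both ketone body synthesis and use, varied least. It was measured at 156, 163 and 203 CPM in Nsd2f/f and at 121, 179.7 and 153 CPM in Nsd2Vil-KO, a 1.68-fold range over the 6 libraries. Between genotypes the log2 fold change was -0.20 ± 0.22 (edgeR p = 0.385, exact permutation p = 0.4), and it remained below 0 when any 1 library was left out, between -0.34 and -0.062. Over the 9 genes the exact two-sided permutation p lay between 0.3 and 1.0, where 3 against 3 libraries cannot go below 0.1, and the adjusted p of edgeR lay between 0.992 and 0.999.

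**Figure D2:**
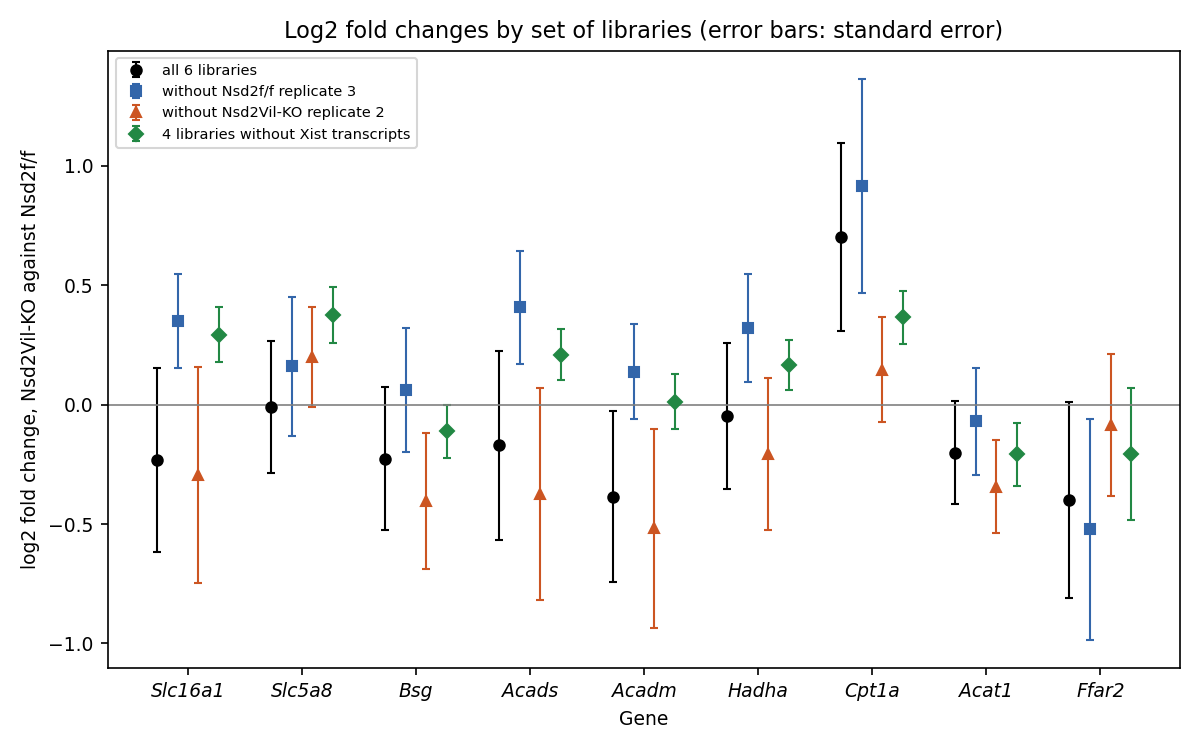
Log2 fold change of Nsd2Vil-KO against Nsd2f/f for the 9 genes by edgeR, with bars of 1 standard error, in all 6 libraries (black circles), without Nsd2f/f replicate 3 (blue squares), without Nsd2Vil-KO replicate 2 (orange triangles) and in the 4 libraries without Xist transcripts (green diamonds). Slc16a1 runs from -0.29 without Nsd2Vil-KO replicate 2 to 0.35 without Nsd2f/f replicate 3, and Cpt1a is above 0 in all 4 fits.

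The sign of most fold changes followed the libraries that stood apart. In all 6 libraries 1 of the 9 genes had a log2 fold change above 0 and the median was -0.20, beside a median of 0.0012 over all tested genes. Without Nsd2f/f replicate 3 there were 7 above 0 with a median of 0.16, and without Nsd2Vil-KO replicate 2 there were 2 with a median of -0.29. None of the 9 was called in either fit, in which 3.38% and 5.08% of the tested genes were called.

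In the 4 libraries without Xist transcripts, 2 of each genotype, 3 of the 9 genes rose by the screening criterion, Slc16a1, Slc5a8 and Cpt1a, and none fell, where 11% of 15030 tested genes were called and 5.6% were called higher. The log2 fold changes were 0.29 ± 0.12 for Slc16a1, 0.37 ± 0.12 for Slc5a8 and 0.37 ± 0.11 for Cpt1a. Their edgeR p were 0.0388, 0.0158 and 0.0137, while an exact permutation test of 2 against 2 libraries cannot go below 0.333, and their adjusted p lay between 0.375 and 0.432. Both butyrate transporters were thus higher in both Nsd2Vil-KO libraries than in both Nsd2f/f libraries, and so was Cpt1a. With 2 libraries a side 43.9% of the tested genes did not overlap, and 7 of the 9 did not, 5 of them higher and 2 lower, beside 21.3% and 22.6% of the tested genes. In the other 2 libraries the comparison went the other way for the transporters. Nsd2Vil-KO replicate 2 was below Nsd2f/f replicate 3 for 8 of the 9 genes, Cpt1a being the exception, and 49.8% of the tested genes were below. With the presence of Xist transcripts as a covariate in all 6 libraries Cpt1a was the 1 called gene of the 9, where 7.82% of the tested genes were called and 3.73% were called higher. It rose by 0.59 ± 0.18 on the log2 scale (edgeR p = 0.0164; no exact permutation test was made of this fit). In the same 4 libraries 6 of the 8 goblet cell markers were called lower (median log2 fold change -0.62), and 3 of the 10 markers of mature colonocytes were called higher (median 0.29). Of the 10 markers of monocytes and macrophages 5 were called lower (median -1.41), of the 9 tested neutrophil markers 1 was called lower (median -2.07), and of the 6 tested tuft cell markers 4 were called higher (median 1.16). The macrophage markers summed to between 109 and 467 CPM in Nsd2f/f and between 175 and 279 CPM in Nsd2Vil-KO, and the tuft markers to between 11.9 and 26.9 and between 23.3 and 45.6 CPM. The goblet markers, such as Muc2 and Clca1, summed to between 14200 and 16430 CPM in Nsd2f/f and between 9948 and 11150 CPM in Nsd2Vil-KO over all 6 libraries, and the 8 enteroendocrine markers to between 141 and 222 and between 113 and 138 CPM. The goblet and enteroendocrine sums did not overlap between genotypes, though of their single markers only Clca1 and Pyy did not overlap. In all 6 libraries 1 of the 8 goblet and 0 of the 8 enteroendocrine markers were called, beside 3.29% of all tested genes. No marker of the lists in this paragraph was at 0 in all libraries, and the part of these cell types in the calls was not tested. One library a genotype gives no test, and whether the fold changes differ between these sets of libraries was not tested.

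Levels were compared between genes per kb of exon. Bsg led in each of the 6 libraries with a mean of 504.5 CPM per kb, Acat1 kept place 5 and Ffar2 the last place in each, with means of 43.2 and 5.42 CPM per kb. Between Bsg and Acat1 came Slc16a1 at 68.8, Acads at 68.5 and Slc5a8 at 57.2 CPM per kb, which traded places among libraries, so their order does not exceed their spread. The same held for Hadha at 31.7, Cpt1a at 29.0 and Acadm at 28.9 CPM per kb. Only in Nsd2Vil-KO replicate 2 did these tiers mix, with Cpt1a at 58.9 CPM per kb in place 4 and Slc5a8 at 39.3 CPM per kb in place 6.

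**Figure D3:**
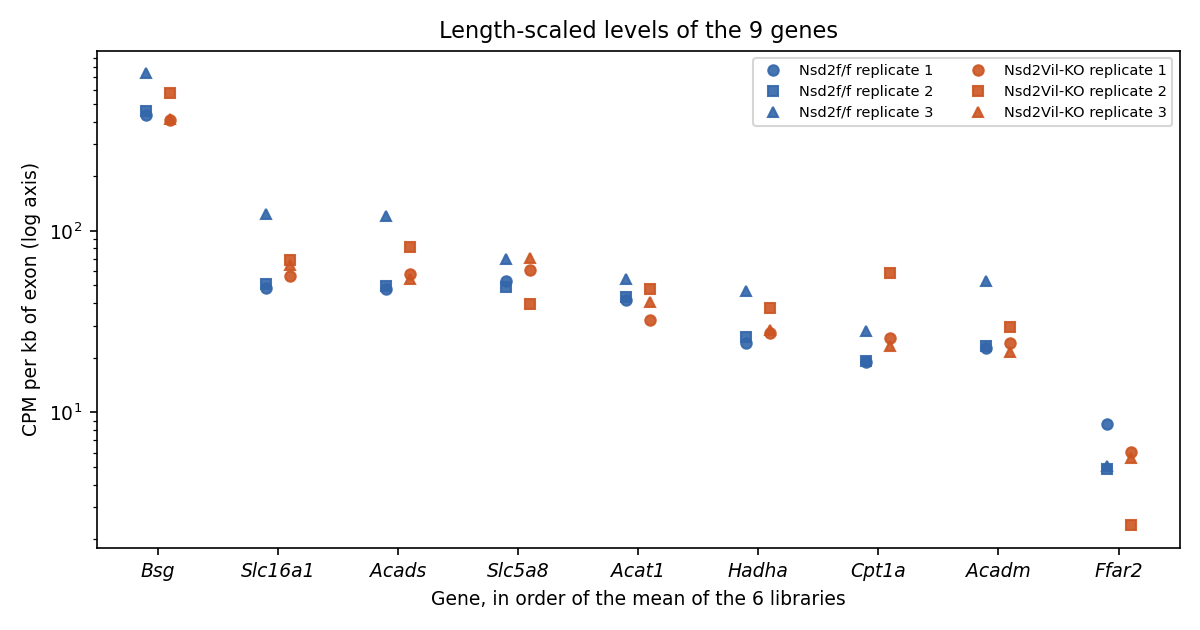
CPM per kb of exon of the 9 genes in each library on a log axis, ordered by the mean of the 6 libraries, with blue for Nsd2f/f, orange for Nsd2Vil-KO and a marker shape per replicate number. Bsg lies between 409 and 738 CPM per kb, above all others, and Ffar2 between 2.39 and 8.58, below all others.

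The likeness of 2 genes was measured as the root mean square difference of their log2 CPM over the 6 libraries, each centred on its mean. Among the 9 genes the closest were Bsg and Hadha at 0.12, Acads and Acadm at 0.13, and Slc16a1 and Acads at 0.15 on the log2 scale. The farthest were Cpt1a and Ffar2 at 1.07. Compared with 10563 genes that averaged 5 CPM or more, the gene most like Acads was Cpt2, the inner-membrane enzyme of the carnitine shuttle, at 0.042, and the gene most like Acadm was Hadh, the short-chain hydroxyacyl-CoA dehydrogenase, at 0.060. The gene most like Cpt1a was Pparg, a nuclear receptor of lipid metabolism, at 0.045. For Slc16a1 it was Adk at 0.089, for Slc5a8 C530008M17Rik at 0.051, for Bsg Scp2 at 0.031, for Hadha Ipmk at 0.035, for Acat1 Poldip2 at 0.037 and for Ffar2 Akr1b10 at 0.135. How many other genes share such an order over the 6 libraries, of which 2 stand apart, was not tested.

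The wider pathway was read from 7 lists, in which 77 of the 96 genes that are not among the 9 passed the filter on low counts. Of these 77, 37 had a log2 fold change above 0 and 40 below, and 1 was called, beside the 3.29% of all genes. That gene was Acss2, which makes acetyl-CoA from acetate outside the mitochondrion. It was measured at 98.9, 112 and 151 CPM in Nsd2f/f and at 67.2, 73.7 and 82.1 CPM in Nsd2Vil-KO. All 3 Nsd2Vil-KO libraries were below all Nsd2f/f libraries, and Acss2 fell by 0.70 ± 0.21 on the log2 scale (edgeR p = 0.0124, exact permutation p = 0.1, adjusted p = 0.992). It stayed between -0.82 and -0.50 when any 1 library was left out. The exons of Acss2 overlap those of Ggt7, Acss2os and Gss on the other strand. The overlap with Gss spans 395 bases, and Gss had 13922 counts over all libraries against 10072 for Acss2. The goblet and enteroendocrine sums given above were likewise lower in all 3 Nsd2Vil-KO libraries, and their part in the Acss2 values was not tested. Of the 77 genes 1 was higher and 3 were lower without overlap of the genotypes, where 9.9% of all tested genes did not overlap. Acsl3, which activates long-chain fatty acids, was also among the 3, at 131, 124 and 132 CPM against 99.1, 110.1 and 89.0 CPM. Its log2 fold change of -0.38 ± 0.16 missed the criterion (edgeR p = 0.0525, exact permutation p = 0.1). The exons of Acsl3 overlap those of Utp14b on the same strand over 244 bases, and Utp14b had 2001 counts against 12159 for Acsl3. Acsl3 was called lower without Nsd2Vil-KO replicate 2 (-0.46), in the 4 libraries without Xist transcripts (-0.43) and with Xist transcripts as a covariate (-0.38), where 5.08%, 11% and 7.82% of the tested genes were called.

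The other genes of transport and sensing gave no call: 2 of 11 tested had a log2 fold change above 0 and 9 below, Slc16a1, Slc5a8, Bsg and Ffar2 included, and their median was -0.23. Hcar2, the receptor for butyrate and beta-hydroxybutyrate, was measured at 23.4, 4.14 and 0.485 CPM in Nsd2f/f and at 3.41, 0.777 and 0.715 CPM in Nsd2Vil-KO. The first Nsd2f/f library carried most of this signal, and the log2 fold change was -2.52 ± 1.21 (edgeR p = 0.076, exact permutation p = 0.6). It was -0.53 without Nsd2f/f replicate 1 and -3.65 without Nsd2Vil-KO replicate 1. Without Nsd2f/f replicate 3, where 3.38% of the tested genes were called, Hcar2 was called at -3.06 (edgeR p = 0.017; no exact permutation test was made of this fit), and DESeq2 also called it in all 6 libraries. Without Nsd2f/f replicate 3, 5 of the 10 monocyte and macrophage markers were called lower (median -1.76), none of the 9 tested neutrophil markers was called (median -1.47), and Nsd2f/f replicate 1, where Hcar2 was highest, was the highest of the 6 libraries for 9 of those 10 and 6 of those 9. Their part in the Hcar2 values was not tested. Abcg2, an export pump of the apical membrane, was at 156 CPM in Nsd2f/f replicate 3 and between 40.9 and 55.3 CPM in the other 5 libraries.

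In mitochondrial beta-oxidation the highest library of each gene was one of the 2 that stood apart. None of its 20 genes, Acads, Acadm and Hadha included, was called, 7 were above 0 and 13 below, and the median log2 fold change was -0.061. The highest library was Nsd2f/f replicate 3 for 15 of the 20 and Nsd2Vil-KO replicate 2 for the other 5, against 23.7% and 28.7% of all tested genes. The median gene of the list was 1.83 times as high in Nsd2f/f replicate 3 as in the mean of the other two of its genotype, and 1.54 times as high in Nsd2Vil-KO replicate 2 as in its partners, where the median of all tested genes was 0.984 and 0.983. Without Nsd2f/f replicate 3 all 20 had a log2 fold change above 0 (median 0.31), without Nsd2Vil-KO replicate 2 none had (median -0.38), and in the 4 libraries without Xist transcripts 10 had (median -0.019). Acadl, the long-chain dehydrogenase, was at 214, 248 and 257 CPM in Nsd2f/f and at 191, 689.8 and 243 CPM in Nsd2Vil-KO (log2 fold change 0.64, edgeR p = 0.216, exact permutation p = 0.9), and its log2 fold change was -0.14 without Nsd2Vil-KO replicate 2. Acad12, a further member of the dehydrogenase family, was at 5.75, 4.25 and 16.2 CPM in Nsd2f/f and at 6.34, 5.66 and 4.80 CPM in Nsd2Vil-KO (log2 fold change -0.63, edgeR p = 0.27, exact permutation p = 0.8), and its log2 fold change was 0.16 without Nsd2f/f replicate 3.

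**Figure D4:**
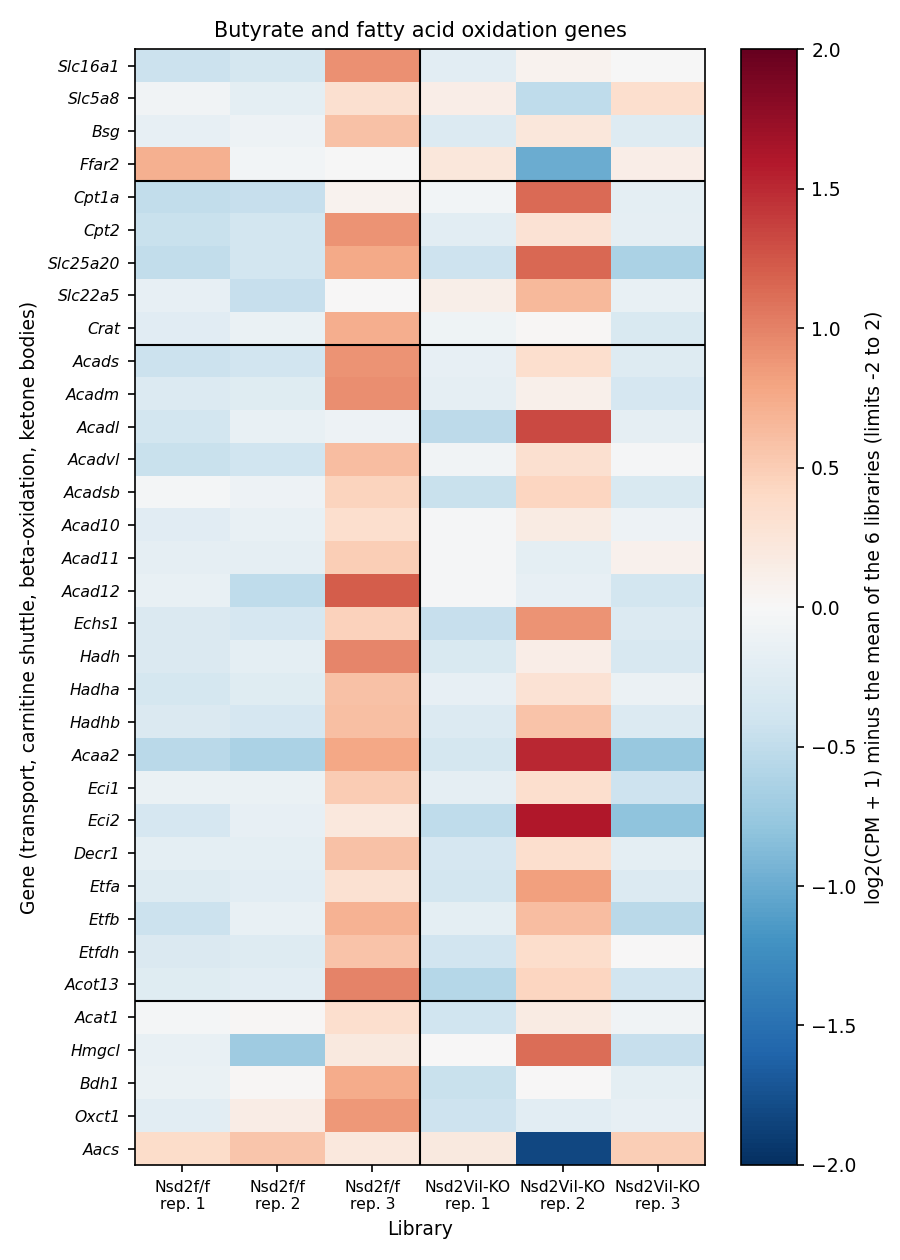
Log2(CPM + 1) minus the mean of the 6 libraries for 34 genes (rows, in blocks for transport and sensing, carnitine shuttle, mitochondrial beta-oxidation and ketone bodies) in the 6 libraries (columns, Nsd2f/f left of the line), with red above and blue below the mean and colours ending at -2 and 2. Not all tested genes of these lists are drawn. In the beta-oxidation block the highest cell of each row falls in Nsd2f/f replicate 3 (15 rows) or Nsd2Vil-KO replicate 2 (5 rows).

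In the carnitine shuttle 5 genes were tested, Cpt1a among them, 3 were above 0 and 2 below with a median of 0.19, and none was called. The median was 0.57 with all 5 above 0 without Nsd2f/f replicate 3 and -0.36 with 2 above 0 without Nsd2Vil-KO replicate 2. In the 4 libraries without Xist transcripts it was 0.22 and with Xist transcripts as a covariate 0.070, each with 3 above 0. The sign of the median thus depended on which libraries were kept. Slc22a5, the carnitine importer, was at 30.8, 24.6 and 34.7 CPM in Nsd2f/f and at 37.4, 54.8 and 31.0 CPM in Nsd2Vil-KO (log2 fold change 0.45, edgeR p = 0.128, exact permutation p = 0.2), and its log2 fold change was 0.19 without Nsd2Vil-KO replicate 2. All 5 were highest in Nsd2f/f replicate 3 or Nsd2Vil-KO replicate 2.

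Of the ketone body genes 5 were tested, Acat1 among them, with 1 above 0 and 4 below (median -0.46) and no call. Without Nsd2f/f replicate 3 the median was -0.14. Oxct1, which starts the use of ketone bodies as fuel, was at 160, 206 and 339 CPM in Nsd2f/f and at 138, 159 and 165 CPM in Nsd2Vil-KO (log2 fold change -0.61, edgeR p = 0.0781, exact permutation p = 0.2), with overlapping groups. Bdh1, which interconverts acetoacetate and beta-hydroxybutyrate, was at 110.2, 123 and 204 CPM in Nsd2f/f and at 89.2, 123 and 106 CPM in Nsd2Vil-KO (log2 fold change -0.46, edgeR p = 0.138, exact permutation p = 0.2). Both were highest in Nsd2f/f replicate 3, without which the log2 fold changes were -0.24 for Oxct1 and -0.14 for Bdh1. With Xist transcripts as a covariate, where 7.82% of the tested genes were called, both were called lower, at -0.54 and -0.42 (edgeR p = 0.0471 and 0.0373; no exact permutation test was made of this fit).

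Peroxisomal beta-oxidation (14 tested, 7 above 0 and 7 below) and the list of PPAR factors, coregulators and targets (22 tested, 15 above and 7 below, median 0.22) held no called gene in all 6 libraries. Nsd2Vil-KO replicate 2 was the highest library for 11 of the 22 genes of the PPAR list, and without it their median was 0.074, with 12 above 0. Abcd3, a transporter of the peroxisomal membrane, did not overlap, at 152, 136 and 162 CPM in Nsd2f/f and 182, 227 and 176 CPM in Nsd2Vil-KO, with a log2 fold change of 0.38 (edgeR p = 0.0828, exact permutation p = 0.1). Abcd3 was called higher in the 4 libraries without Xist transcripts (0.32) and with Xist transcripts as a covariate (0.37), where 11% and 7.82% of the tested genes were called. Acox2, a peroxisomal oxidase, reached 10.04 CPM in Nsd2Vil-KO replicate 2 and at most 0.975 CPM elsewhere. Acot1, an acyl-CoA thioesterase and PPAR target, reached 28.8 CPM in that library and between 3.62 and 6.48 CPM elsewhere (log2 fold change 1.61, edgeR p = 0.0536, exact permutation p = 0.2), and its log2 fold change was 0.37 without that library. Ppargc1a, a coactivator of mitochondrial genes, was instead highest in Nsd2f/f replicate 3, at 55.2 CPM against 15.7 to 22.8 CPM elsewhere (log2 fold change -0.94, edgeR p = 0.0613, exact permutation p = 0.2), and it stood at -0.28 without that library. In the 4 libraries without Xist transcripts 7 of 21 tested genes of the PPAR list were called, all higher, where 11% of all tested genes were called and 5.6% were called higher.

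The summed markers of crypt base and dividing cells were low in both libraries that stood apart. These 10 markers, such as Lgr5 and Mki67, summed to 352 CPM in Nsd2f/f replicate 3 and 416 CPM in Nsd2Vil-KO replicate 2. In the other 4 libraries they summed to between 984 and 1197 CPM. Single markers fell unequally in Nsd2Vil-KO replicate 2. Ccnb1 at 34.8 and Pcna at 93.7 CPM lay near the 36.7 and 107.5 CPM of Nsd2Vil-KO replicate 1, while Lgr5 was at 0.111 against 12.6 CPM. The 10 markers of mature colonocytes, such as Aqp8 and Slc26a3, summed to 11950 CPM in Nsd2f/f replicate 3 and to 5147 CPM in Nsd2Vil-KO replicate 2, the highest and the lowest of the 6, and to between 6136 and 8078 CPM in the other 4. Members of this list differed in Nsd2Vil-KO replicate 2: Muc3, the most abundant, was at 2372 CPM and the lowest of the 6 libraries, and Aqp8 at 27.9 CPM was too, while Car1 at 599 CPM was above the 112 to 301 CPM of the 4 libraries without Xist transcripts. No marker of either list was at 0 in all libraries. Fibroblast markers, 6 in number, summed to 5.82 and 5.05 CPM in these 2 libraries and to between 15.5 and 263 CPM in the others. The part of these cell types in the levels of the 9 genes was not tested.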

How the data were processed

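RNA-seq of IECs was analysed in 6 libraries, 3 Nsd2f/f and 3 Nsd2Vil-KO, grouped by the sample labels. The labels read WT and NSD2-FF-VILCRE, and the genotype names used here are those of the study. The deposited table holds whole counts for each Ensembl gene, not normalised. According to the methods reads were trimmed with Cutadapt and Trimmomatic and aligned to GRCm38 with HISAT2. The program behind the counts and whether it read strand are not given in the sources used here, and labels and methods name different library kits. If strand was not used, reads of overlapping genes cannot be told apart. All columns of the table were used.

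Counts were fitted in R 4.3.3 with edgeR 4.0.16 (TMM, filterByExpr, quasi-likelihood test with robust estimation, no covariates), and p-values were adjusted over 14650 tested genes by the Benjamini-Hochberg method. CPM are TMM-normalised, and errors are SD over libraries or SE of the fit. The biological coefficient of variation was 41.3%. A gene was called with a fold change above 1.2 and p below 0.05, the screening criterion of the study, and 0 genes had an adjusted p below 0.05 (482 had an unadjusted p below 0.05; DESeq2 gave 4 at an adjusted p below 0.05). Coordinates and exon lengths are from GENCODE vM21, in which 99.5% of listed genes were found.

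The 9 genes and the lists were chosen with earlier results of these data known. Named genes are the 9, Nsd2, in each pathway list the called genes and the 2 with the smallest p, and the genes most alike by root mean square difference (log2 CPM with a prior count of 2). 1 gene of the lists is not reported here and was left out of them. Of the 13 marker lists, 9 are given beside the results. The sums of the other 4, in CPM for Nsd2f/f and then Nsd2Vil-KO, were 12.6 to 35.6 and 19.3 to 40.8 for T cells, 18.3 to 186 and 24.4 to 244 for B and plasma cells, 1.94 to 17.7 and 3.27 to 10.3 for smooth muscle, and 4.93 to 5.90 and 5.33 to 7.15 for endothelium. Alternatives covered normalisation, the filter, DESeq2 1.42.0, limma-voom (limma 3.58.1), log2(FPKM + 1), a replicate block, Xist transcripts, mitochondrial genes and leaving out libraries.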

Additional observations from a re-analysis of the deposited data

How the results depend on the processing

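The fold changes and calls of the 9 genes, Nsd2, the pathway lists and the other pathway genes with a printed fold change were recomputed. This was done under 11 alternatives and with each library left out. Hcar2 and Acox2 have no value with at least 10 counts in each library, a filter they did not pass. Levels per kb, likeness between genes, marker sums, counts of highest libraries and the transporter ratio were not recomputed. Acat1 and Ffar2 stayed below 0 and without a call under every setting. The size factors of the DESeq2 type and leaving out mitochondrial genes changed no call of these genes and lists, with 478 and 480 of the 482 calls over all genes kept. The labels do not say whether the replicate numbers pair the libraries. Same-numbered deviations from the genotype means correlated at 0.32, -0.35 and -0.11. This cannot decide the pairing, because the libraries that stood apart carry different numbers and weigh on these deviations. With the number as a replicate block 303 genes were called, Hadha stood at 0.0060 and no other of the 9 changed sign or call.

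In the 4 libraries without Xist transcripts 1646 genes were called and 3 of the 9, with log2 fold changes of 0.29 for Slc16a1, 0.37 for Slc5a8, 0.21 for Acads, 0.013 for Acadm, 0.17 for Hadha and 0.37 for Cpt1a. Of other genes Abcg2 was at 0.19, Acadl at -0.081, Acad12 at 0.16 and Acox2 at -0.099. Calls were 2 for transport and sensing (median 0.19), 3 for acyl-CoA synthetases (median -0.22), 1 for the carnitine shuttle, 2 for mitochondrial beta-oxidation, 2 for peroxisomal beta-oxidation and 7 for the PPAR list, and the ketone body median was -0.21. With Xist transcripts as a covariate 1145 genes were called, Hadha was at 0.0030, Cpt1a was called at 0.59 as the 1 of the 9, and calls were 3 for synthetases, 2 for the carnitine shuttle, 1 for mitochondrial and 1 for peroxisomal beta-oxidation, 2 for ketone bodies (Oxct1 and Bdh1) and 5 for the PPAR list.

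With limma-voom and quality weights 1421 genes were called, Slc16a1 was at 0.21, Slc5a8 at 0.33, Acads at 0.13, Hadha at 0.11, Abcg2 at 0.091, Acadl at -0.041, Acad12 at 0.082 and Acox2 at -0.18, and calls were 4 for synthetases (median -0.19), 2 for peroxisomal beta-oxidation and 3 for the PPAR list, with a ketone body median of -0.22. With library size only 382 genes were called, Nsd2 was at -1.12 and no longer called, Slc5a8 at 0.10, Hadha at 0.047 and Cpt1a called at 0.73 as the 1 of the 9, with 1 call for the carnitine shuttle, 1 for peroxisomal beta-oxidation and 4 for the PPAR list. The median over the 9 genes lay above 0 with limma-voom (0.11), in the 4 libraries (0.17) and without Nsd2f/f replicate 3 (0.16), and otherwise between -0.34 and -0.089. With no filter 861 genes were called, Slc5a8 was at 0.0017 and the PPAR list held 2 calls. At least 10 counts in each library gave 396 calls among 12328 genes and 2 for synthetases. DESeq2 called 633 of 14650 genes, 1 for transport and sensing (Hcar2, -2.52), 2 for synthetases, 1 for peroxisomal beta-oxidation and 2 for the PPAR list. On log2(FPKM + 1) Hadha was at 0.0018.

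With 1 library left out the count over all genes ran from 323 to 769 (without Nsd2Vil-KO replicate 2), and Nsd2 from -1.42 to -0.87, no longer called at -1.04 without Nsd2f/f replicate 1 and at -0.97 without Nsd2f/f replicate 2. The 9 genes ran from -0.46 to 0.35 (Slc16a1), -0.19 to 0.20 (Slc5a8), -0.40 to 0.060 (Bsg), -0.40 to 0.41 (Acads), -0.60 to 0.14 (Acadm) and -0.22 to 0.32 (Hadha). Abcg2 ran from -1.10 to 0.13, Acad12 from -0.96 to 0.16, and Acadl from -0.14 to 0.96. Calls ran from 0 to 4 for the PPAR list, 1 to 3 for synthetases, and 0 to 1 for transport and sensing, ketone bodies, mitochondrial and peroxisomal beta-oxidation, and the peroxisomal median ran from -0.14 to 0.22 and the ketone body median from -0.47 to -0.14. Named genes without a call in all libraries gained one under other settings: Acsl3 with at least 10 counts, DESeq2 and limma-voom, Abcd3 with limma-voom and library size only, Acot1 with library size only, no filter, DESeq2, the Xist covariate and without Nsd2Vil-KO replicate 1 or 3, Acox2 with DESeq2 and without Nsd2Vil-KO replicate 1 or 3, Ppargc1a with no filter, DESeq2 and without Nsd2f/f replicate 1, Oxct1 without Nsd2f/f replicate 1, and Slc22a5 with the Xist covariate. The causes were not tested. Counting error is small beside the spread between libraries: the lowest count of the 9 genes was 120.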

Other observations

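The balance of the 2 butyrate transporters, chosen for a look after its values were seen, split the libraries as Xist did. Slc16a1 divided by Slc5a8, both per kb, was 1.77 in Nsd2f/f replicate 3 and 1.75 in Nsd2Vil-KO replicate 2, and 0.910, 1.04, 0.920 and 0.922 in the other 4. The levels behind the 2 high ratios differed. In Nsd2f/f replicate 3 Slc16a1 was 2.48 and Slc5a8 1.37 times the mean of its partners of that genotype. In Nsd2Vil-KO replicate 2 Slc16a1 was 1.135 and Slc5a8 0.598 times that of its partners.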
